A study of Homo sapiens with 6 samples.

Results

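The 83 genes described here encode proteins of the cytosolic ribosome. They are the rows of the deposited count table that carry the pathway entry Ribosome and whose symbol starts with RPL or RPS, out of 31762 genes in the table. The symbols name 50 genes of the large subunit (RPL, with RPLP0, RPLP1 and RPLP2 of the stalk) and 33 genes of the small subunit (RPS, with RPSA). The other rows with the same pathway entry were 43 genes of the mitochondrial ribosome, together with FAU, RSL24D1 and the like, and none of these is a member. The rule itself used no measured value, but the members were chosen with earlier results of these data known. Near copies such as RPL22L1, RPL26L1, RPL36AL, RPL3L and RPS27L were included.

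The cells were H460, a human lung cancer line established from a large cell carcinoma, labelled wild type. The control group (3 libraries) is labelled as control with no other treatment named, and the fluoxetine group (3 libraries) received 20 µM fluoxetine, a serotonin reuptake inhibitor used as an antidepressant, for 24 h. Both groups were grown in RPMI-1640 medium with fetal bovine serum, and total RNA was sequenced. Nothing in the labels says that the libraries of a group came from separate cultures, so the p-values measure the spread between these libraries, which may be technical, and a single line was used. The question addressed here was how transcripts of the 2 subunits moved under the drug, since the study concerns mTOR signalling, which is known to control the translation of ribosomal protein mRNAs.

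A ribosome holds 1 copy of nearly every ribosomal protein, with the stalk proteins RPLP1 and RPLP2 as the known exception. Growing cells make these proteins in matched amounts and degrade those that are not assembled. Most of their mRNAs begin with a C followed by a run of pyrimidines, the 5′ terminal oligopyrimidine (TOP) element, through which LARP1 and mTOR set how well they are translated. Transcript counts measure the amount of mRNA and not its translation.

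Counts per library lay between 16157507 and 27823667 and every fluoxetine library was shallower than every control library, which left 3 counts worth 0.108 to 0.186 CPM (the counts of a gene scaled to a common library size with edgeR's TMM factors). The epithelial keratins KRT8 (1292 to 2099 CPM), KRT18 and KRT19 were high in all 6 libraries. Of the other epithelial markers, EPCAM had 4 to 11 counts and CDH1 had 0 or 1 count per library. Markers of other cell types (PTPRC, CD3E, PECAM1, CDH5, VWF and COL1A2) had at most 3 counts per library, while CD14, COL1A1 and COL3A1 reached 46, 118 and 550 counts.

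Start sites were taken from RefSeq on GRCh38.p14, where 67 of the 83 members had an entry. A C at a listed start followed by at least 4 more pyrimidines was found for 48 of the 67 genes (71.6%), compared with 5.14% of 27305 genes with an entry. The windows below cover 10 bases before the start and 20 bases from it, and capitals mark the unbroken pyrimidine run that begins at the start. The first 7 are genes called lower under fluoxetine below, 5 with the element and 2 without it at the listed start. The last 3 are members with smaller changes.
RPL22L1 (chr3:170870176-170870205, minus strand): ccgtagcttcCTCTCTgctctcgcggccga
RPL24 (chr3:101686699-101686728, minus strand): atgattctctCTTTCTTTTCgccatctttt
RPL41 (chr12:56116623-56116652, plus strand): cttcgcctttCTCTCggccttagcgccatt
RPS25 (chr11:119018324-119018353, minus strand): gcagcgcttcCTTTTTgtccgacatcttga
RPS13 (chr11:17077648-17077677, minus strand): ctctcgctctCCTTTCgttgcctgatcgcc
RPL27 (chr17:42998409-42998438, plus strand): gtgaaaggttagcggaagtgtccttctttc
RPL10A (chr6:35468391-35468420, plus strand): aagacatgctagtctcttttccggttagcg
RPL13A (chr19:49487598-49487627, plus strand): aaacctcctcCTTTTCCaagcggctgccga
RPS6 (chr9:19380217-19380246, minus strand): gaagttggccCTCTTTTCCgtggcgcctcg
RPS4X (chrX:72277229-72277258, minus strand): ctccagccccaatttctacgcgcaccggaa

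RPL27 and RPL10A show pyrimidine runs a few bases downstream of the listed start, so the class depends on the base that RefSeq lists. A run of at least 6 pyrimidines between 10 bases before and 15 bases after the start was present for 59 of the 67 members (88.1%) and for 30.7% of all genes. In the whole window of 250 bases before and 50 bases after the start, searched on both strands, the ETS letters CCGGAAG were found for 23 members (34.3%, against 12.2% of all genes) and the YY1 letters AAGATGGC for 7 (10.4%, against 3.52%). The E-box CACGTG was found for 4 members (5.97%, against 8.78%) and TATAAA for 6 (8.96%, against 14.0%). The ETS and YY1 letters can overlap by the shared AAG, and such overlaps were counted for both.

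In untreated H460 cells the ribosomal protein genes took 4.92%, 4.45% and 4.03% of all counts in control libraries 1, 2 and 3. Of the 50 most abundant genes of the control group, 6 were members, and of the 200 most abundant, 27 were. Levels between genes were compared as CPM per kilobase of coding sequence. Among the 80 members with at least 100 counts in every library, this level ran from 36.2 to 2811, a 77.6-fold range, with a median of 974 for the large subunit and 973.5 for the small subunit.

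RPS24, a small subunit protein that is mutated in some cases of Diamond-Blackfan anaemia, had the highest level at 2811 CPM per coding kilobase in the control group. RPL19 (2530), RPL4 (2473), which lines the peptide exit tunnel, and RPLP0 (2400), the base of the stalk, led the large subunit. RPS4X (2280) and RPS2 (2184) followed RPS24 in the small subunit. At the low end were RPL36A (36.2), RPL26 (49.98) and RPL21 (53.3) of the large subunit and RPS15A (53.7) and RPS23 (104) of the small subunit, beside RPL17 (4.12), RPS10 (3.42) and RPL3L (0.391), which had fewer than 100 counts in some library. RPL3L is a copy of RPL3 known from skeletal muscle and heart, whereas RPL17 and RPS10 are core proteins of the ribosome.

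Several of the lowest levels belong to genes whose sequence is not theirs alone. Exons of RPL17-C18orf32, a read-through gene on the same strand, cover 100% of the coding bases of RPL17, and those of RPS10-NUDT3 cover 92.1% of RPS10. RPL36A lies under RPL36A-HNRNPH2 for 94.3% of its coding bases. Every stretch of 75 coding bases of RPL21, RPL36A, RPL39, RPL41, RPS26, RPS27 and RPS28 also occurs in the transcript of another gene. Across the 80 genes the level had a Spearman correlation of -0.08 with the share of such stretches, and RPL41 stood at 1987 CPM per coding kilobase with all of them shared. Counts of all these genes are uncertain to the extent that reads were split or dropped between copies, and the part this plays in their level was not tested.

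Fluoxetine was compared with control by edgeR's quasi-likelihood test on all 15646 genes that passed the filter on low counts, with Benjamini-Hochberg adjustment over all of them. All 83 members passed the filter. After 24 h of fluoxetine, 20 of the 83 were lower at an adjusted p under 0.05 (24.1%, against 5.32% of all tested genes called lower) and 0 were higher (against 7.76% of all tested genes called higher). At an unadjusted p under 0.05, 64 members were lower (77.1%, against 12.9%) and 0 were higher. The fitted log2 fold change, fluoxetine minus control, was below 0 for 82 of the 83, with RPL3L as the exception, and for 45.8% of all tested genes. The count below 0 was 82 in each of the other fits with another tool, scaling, filter or set of libraries too. Its median was -0.29 over the members and 0.03 over all tested genes. None of the members changed by 2-fold or more at the threshold. Counts are shares of a library, and fewer cells with these transcripts and less of them per cell cannot be told apart.

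**Figure D1:**
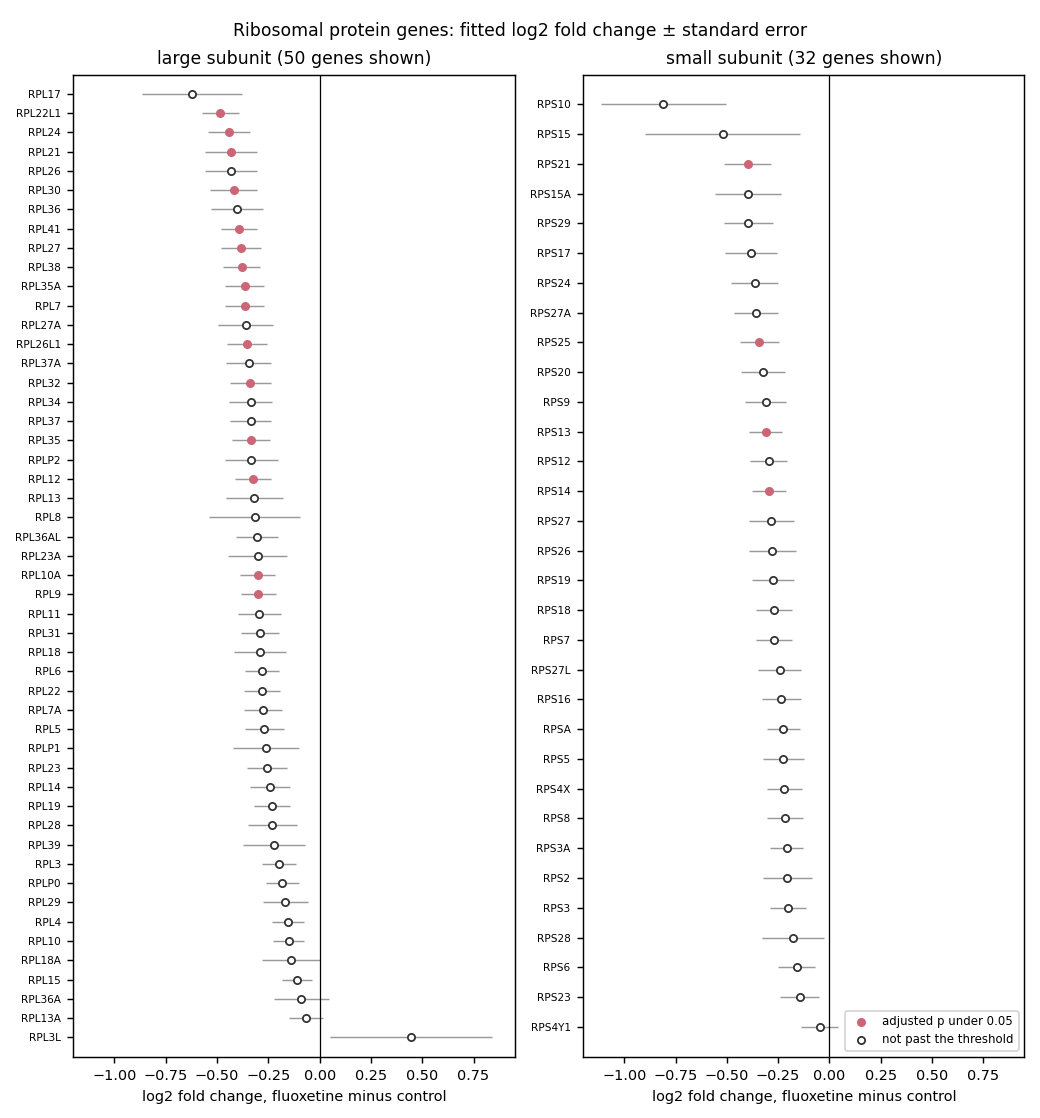
Fitted log2 fold change (horizontal axis, fluoxetine minus control) with its standard error for the large subunit genes (left) and the small subunit genes described here (right), where filled points passed an adjusted p under 0.05 in edgeR. Most points lie between -0.4 and -0.2 in both panels, and the widest bars belong to RPS10, RPL3L and RPS15.

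The middle part of the members lay close together. The quartiles of the log2 fold change were -0.36 and -0.23, and the SD over the 80 genes with at least 100 counts was 0.0939. The medians of the libraries within a group had an SD of up to 0.149 for the large and 0.140 for the small subunit on the same scale, and the 3 fluoxetine libraries lay below all 3 control libraries for 42 of the 83 genes (50.6%, against 14.4% of all tested genes). The number called moved with single libraries. It was 71 without control library 3 and 52 without fluoxetine library 2, but 5 without control library 1, 8 without control library 2, and 1 without fluoxetine library 1 or without fluoxetine library 3. The calls over all tested genes in the same fits are not given here. These counts show only how the number of members called moved.

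The members shared much of their deviation in each library. Against the mean log2 CPM of each gene in the control group, the median of the 80 genes was 0.17 in control library 1, -0.02 in control library 2 and -0.12 in control library 3. It was -0.34 in fluoxetine library 1, -0.14 in fluoxetine library 2 and -0.36 in fluoxetine library 3. Control library 3 and fluoxetine library 2 were thus nearly level, and 42 of the 80 genes were lower in fluoxetine library 2 than in control library 3. Every one of the 80 genes was lower in fluoxetine library 1 than in control library 1, and 79 were lower in fluoxetine library 1 than in control library 2.

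**Figure D2:**
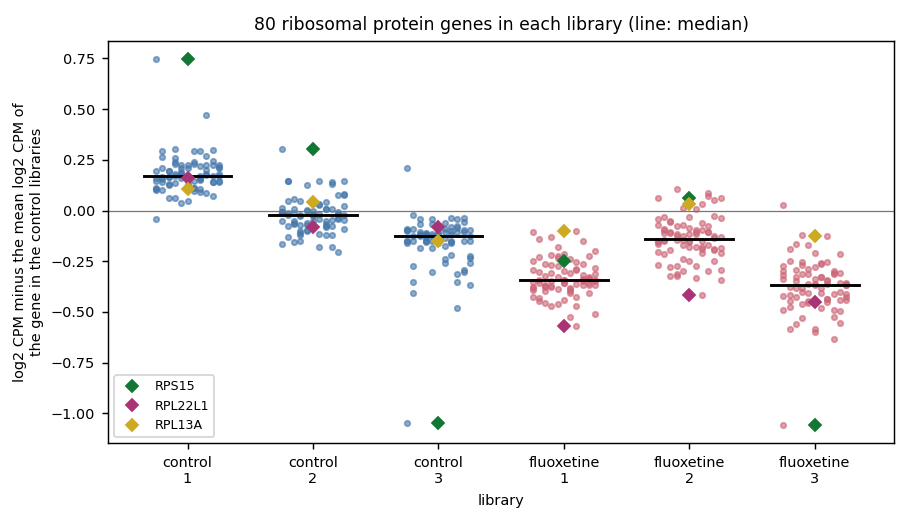
Each point is 1 of 80 ribosomal protein genes in 1 library, plotted as its log2 CPM minus its mean log2 CPM in the 3 control libraries, with the median of each library as a line and 3 genes marked. The medians of control library 3 (-0.12) and fluoxetine library 2 (-0.14) are nearly equal, and RPS15 stands far below the other genes in library 3 of both groups.

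Both subunits gave close values. For the large subunit 15 of 50 genes were lower at the threshold (30%) with a median log2 fold change of -0.30, and for the small subunit 5 of 33 (15.15%) with a median of -0.28. The share of counts on large subunit genes was 2.83% ± 0.263 in control and 2.42% ± 0.187 under fluoxetine (SD, n = 3), and that on small subunit genes was 1.63% ± 0.179 and 1.39% ± 0.106. The log2 ratio of the large to the small subunit sum was 0.774, 0.798 and 0.823 in the control libraries and 0.804, 0.806 and 0.806 in the fluoxetine libraries. The fluoxetine values of this ratio fell inside the control range. Both sums together went from 4.46% ± 0.442 to 3.81% ± 0.293, and fluoxetine library 2 (4.14%) lay above control library 3 (4.03%). The difference in the share of small subunit genes was -0.244 percentage points, and -0.153 without control library 1.

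**Figure D3:**
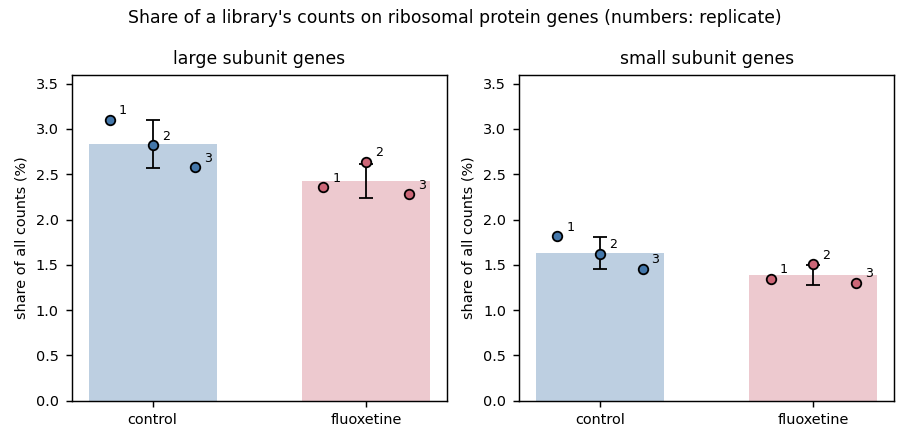
Share of all counts of a library (vertical axis, %) on large subunit genes (left) and small subunit genes (right), with points for libraries, bars for the group mean and error bars for the SD (n = 3). In both panels fluoxetine library 2 lies above control library 3 and the other 2 fluoxetine libraries lie below all control libraries.

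RPL22L1 had the smallest p of the members. It encodes a near copy of RPL22, an RNA-binding protein on the surface of the large subunit that cells can do without. Its level was 115, 97.4 and 97.5 CPM in the control libraries and 69.4, 77.1 and 75.3 CPM in the fluoxetine libraries, so the groups were well apart. The log2 fold change was -0.48 with a standard error of 0.0891 and an adjusted p of 0.00683 in edgeR. RPL22L1 was the only gene of the 20 called in all 6 fits that left out 1 library, with log2 fold changes between -0.56 and -0.43. None of its 75-base stretches occurs in another gene.

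RPL41 and RPL24 followed by p. RPL24 lies on the face of the large subunit that meets the small subunit. The level of RPL24 was 389, 310 and 304 CPM in the control libraries and 240, 268 and 230 CPM in the fluoxetine libraries. Fluoxetine library 2 was again the nearest to control, but no library crossed. The log2 fold change was -0.44 with a standard error of 0.103 (edgeR adjusted p = 0.0195). RPL41, the shortest ribosomal protein with 75 coding bases in the annotation, had 166, 139 and 142 CPM in control and 108, 121 and 112 CPM under fluoxetine (log2 fold change -0.39, standard error 0.0873, edgeR adjusted p = 0.0163). RPL41 shares its whole coding sequence with other genes, and adding the counts of the pseudogenes named after it gave a log2 fold change of -0.37.

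RPL38, a protein known for its role in the translation of Hox mRNAs in mouse embryos, was measured at 232 ± 26.4 CPM in control and 178 ± 8.94 CPM under fluoxetine (SD, n = 3, log2 fold change -0.38). RPL35A, another Diamond-Blackfan anaemia gene, went from 238 ± 32.2 to 185 ± 7.53 CPM (-0.36). RPL24, RPL41, RPL38 and RPL35A were called in 4 of the 6 fits that left out a library, RPL7 in 3, and the remaining 14 called genes in 2. All 20 called genes had all fluoxetine libraries below all control libraries, which is not separate from the test on the same libraries.

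The other large subunit genes called lower were RPL21, RPL30, RPL27, RPL7, RPL26L1, RPL32, RPL35, RPL12, RPL10A and RPL9, with log2 fold changes between -0.43 (RPL21) and -0.30 (RPL9). RPL30, which can bind its own transcript in yeast, had 39.2, 32.7 and 31.4 CPM in control and 26.5, 27.4 and 23.3 CPM under fluoxetine (log2 fold change -0.42, edgeR adjusted p = 0.0370). RPL12, at the foot of the stalk, had 872, 792 and 734 CPM in control and 606, 696 and 612 CPM under fluoxetine (-0.32, edgeR adjusted p = 0.0337). RPL10A, the protein of the L1 stalk, went from 661 ± 58.7 to 536 ± 38.3 CPM (-0.30, edgeR adjusted p = 0.0412). The 3 genes had non-overlapping groups, with fluoxetine library 2 close to control library 3.

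In the small subunit, RPS21, RPS25, RPS13 and RPS14 were among the 5 genes called lower. RPS25, which is needed for translation from several viral and cellular internal ribosome entry sites, had 349, 291 and 283 CPM in control and 244, 259 and 225 CPM under fluoxetine (log2 fold change -0.34, edgeR adjusted p = 0.0379). RPS13 had the smallest p of this subunit, with 300, 278 and 263 CPM against 214, 243 and 221 CPM (-0.31, standard error 0.0789, edgeR adjusted p = 0.0280). RPS14, known from the deletion of its region in a myelodysplastic syndrome, went from 779 ± 68.4 to 636 ± 40.8 CPM (-0.29, edgeR adjusted p = 0.0422). RPS21 went from 93.5 ± 8.90 to 70.9 ± 10.5 CPM (-0.40). Without control library 1, without fluoxetine library 1 or without fluoxetine library 3, 0 small subunit genes were called.

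**Figure D4:**
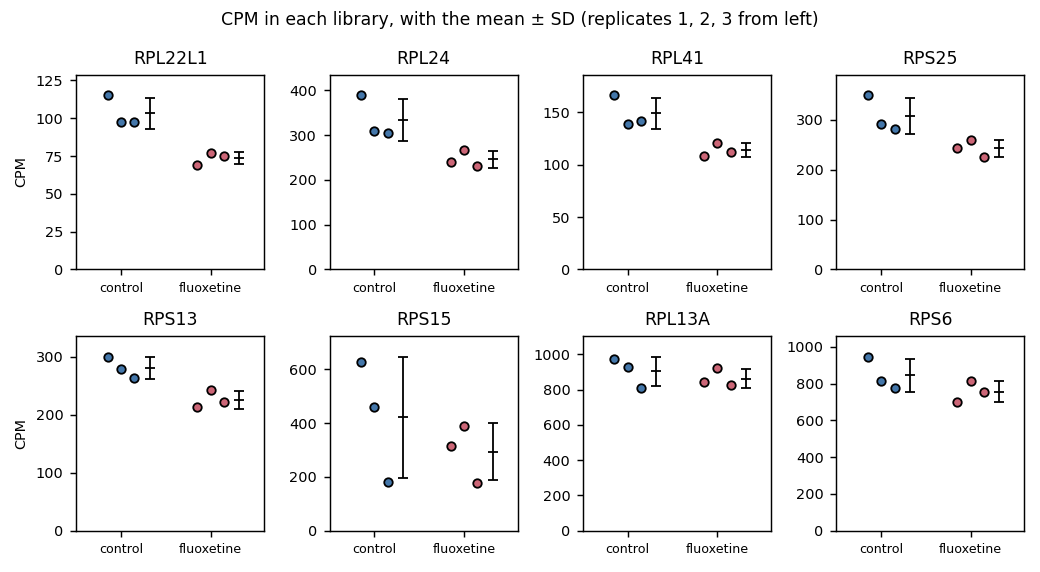
Level of 8 ribosomal protein genes in CPM (vertical axis from 0) in each library, with replicates 1, 2 and 3 from left to right and the mean ± SD (n = 3) beside them. The groups are apart for RPL22L1, RPL24, RPL41, RPS25 and RPS13 and overlap for RPS15, RPL13A and RPS6.

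Members with a special role lay within the range of the others. RPL5 and RPL11, which form a particle with 5S ribosomal RNA and bind MDM2 when ribosome assembly fails, had log2 fold changes of -0.27 and -0.29 (edgeR adjusted p of 0.0909 and 0.0875), with all fluoxetine libraries below all control libraries for both. The stalk genes RPLP0, RPLP1 and RPLP2 had values of -0.18, -0.26 and -0.33 and none passed the threshold (edgeR adjusted p of 0.163, 0.322 and 0.122). RPL10, which completes the catalytic centre late in assembly, was at 633 ± 32.5 CPM in control and 570 ± 42.3 CPM under fluoxetine (-0.15, edgeR adjusted p = 0.230). RPL26, a protein linked to the translation of p53, had -0.43 and an edgeR adjusted p of 0.0508, just above the threshold.

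RPS6, the substrate of S6 kinase downstream of mTOR, had 946, 814 and 777 CPM in the control libraries and 702, 814 and 753 CPM in the fluoxetine libraries. Fluoxetine library 2 was level with control library 2, the groups overlapped, and the log2 fold change of -0.16 did not pass the test (edgeR adjusted p = 0.277). RPS3, which also acts in DNA repair, had -0.20 (edgeR adjusted p = 0.160) and RPSA, which doubles as a laminin receptor, -0.23 (0.0962). RPS27A, a fusion with ubiquitin, had -0.36 (0.0519). RPS19 and RPS26, both mutated in Diamond-Blackfan anaemia, had -0.27 and -0.28 (0.107 and 0.139). RPS24, RPS29 and RPS15A had -0.36, -0.40 and -0.40 without passing the threshold (0.0596, 0.0521 and 0.136).

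The most negative log2 fold changes that missed the threshold were those of genes with few or uneven counts. RPS10 had 44, 24 and 51 counts in the control libraries and 20, 12 and 17 in the fluoxetine libraries (log2 fold change -0.81, standard error 0.304, edgeR adjusted p = 0.108). RPL17 had 45, 51 and 59 counts against 29, 24 and 21 (-0.62, standard error 0.244, edgeR adjusted p = 0.122). The groups of both genes did not overlap. Both are covered by a read-through gene as given above, and so is RPL36A, whose log2 fold change was -0.09. RPL3L had 7 to 15 counts in every library and a log2 fold change of 0.45 with an edgeR adjusted p of 0.516.

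RPS15 differed more within the groups than between them. It had 625, 459 and 180 CPM in the control libraries and 313, 389 and 179 CPM in the fluoxetine libraries, a log2 fold change of -0.52 with an edgeR adjusted p of 0.413. The log2 fold change of RPS15 was -0.15 without control library 1, -0.28 without fluoxetine library 3, -0.81 without fluoxetine library 2 and -0.92 without control library 3 (edgeR adjusted p of 0.831, 0.709, 0.207 and 0.0130), so a single library decided whether it was called. Library 3 was the lowest of its group both times, with a deviation of -1.57 on the log2 scale from the mean of the other control libraries and of -0.96 from that of the other fluoxetine libraries. RPL8 (991, 720 and 513 CPM against 565, 760 and 461 CPM) and RPLP1 (891, 820 and 560 CPM against 634, 727 and 533 CPM) were also lowest in library 3 of each group. Over the 80 genes the deviation of control library 3 from the others had a Spearman correlation of -0.56 with the GC content of the coding sequence, and that of fluoxetine library 3 one of -0.34. It was 0.63 for control library 2. The part of GC content in these values was not tested, and with library 3 left out of both groups 43 members were called lower.

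The values nearest to 0 were those of RPS4Y1 and RPL13A. RPL13A had 972, 929 and 812 CPM in control and 841, 923 and 826 CPM under fluoxetine (log2 fold change -0.07, standard error 0.0840, edgeR adjusted p = 0.630). RPS4Y1, the second copy of RPS4X, had -0.05 (standard error 0.0903, edgeR adjusted p = 0.770) while RPS4X had -0.22 (0.125). RPL36A had -0.09, RPL15 -0.11, RPL4 -0.15 and RPL3 -0.20, and none of them passed the threshold. RPL13A, RPS4Y1, RPL15 and RPL8 were picked out after their values had been seen. The difference of these genes from the other members was not tested.

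Log2 fold changes were more negative among members with short coding sequences. The median log2 fold change was -0.34 for the 10 genes under 300 coding bases, -0.31 for the 47 from 300 to under 600 bases and -0.22 for the 23 of 600 bases and over. Called lower were 3, 15 and 2 genes (30%, 31.9% and 8.70%). Of other tested protein-coding genes in the same classes, 10.8%, 7.78% and 6.04% were called lower. Over the 80 genes the Spearman correlation of the log2 fold change was 0.47 with coding length and 0.44 with the control CPM, given as a description since the genes share libraries. The trends of transcript length and transcript GC content over all genes were then removed from each library, and a trend of coding length was not. After this, the correlation with coding length was 0.52 and the median of the 3 classes was -0.36, -0.28 and -0.19. Other protein-coding genes had medians of -0.11, -0.08 and 0.03 in the same classes before the trends were removed and of -0.11, -0.09 and -0.04 after, so the members lay below them in each class both ways.

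**Figure D5:**
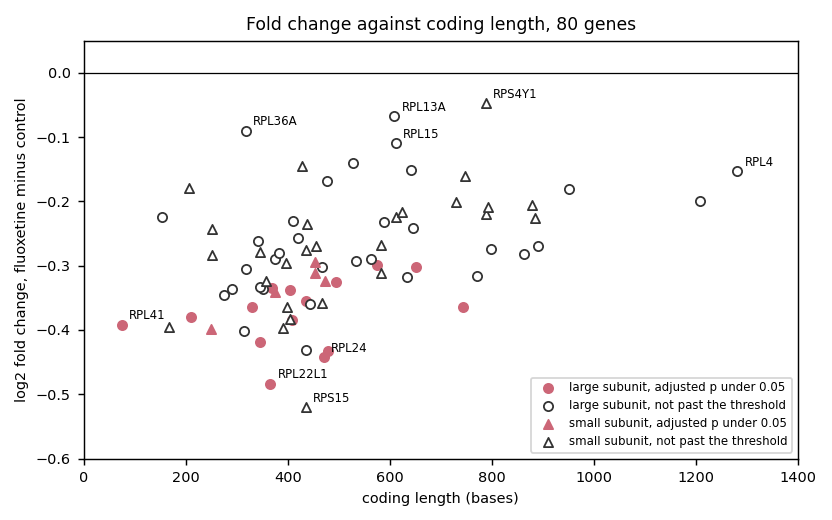
Log2 fold change (vertical axis, fluoxetine minus control) against coding length in bases for 80 ribosomal protein genes, with circles for the large and triangles for the small subunit and filled symbols for an edgeR adjusted p under 0.05. The filled symbols lie mostly left of 600 bases, and the genes of 600 bases and over have a median of -0.22.

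Members with and without the start-site element at a listed start had close medians. The class depends on the base that RefSeq lists, as given above, so this comparison cannot show whether the element matters. The 48 genes with a C and at least 4 pyrimidines at a listed start, such as RPL22L1 and RPL24 shown above but also RPL13A and RPS6, had a median log2 fold change of -0.29 with 12 called lower. The 19 genes without it at a listed start, such as RPL27 and RPS4X, had a median of -0.28 with 5 called lower. The 16 genes without an entry had -0.31 with 3 called lower.

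Near copies were set against their parent gene as a log2 ratio within each library, for 5 pairs that could be compared. The ratio of RPL22L1 to RPL22 was -1.53, -1.49 and -1.57 in the control libraries and -1.81, -1.77 and -1.62 in the fluoxetine libraries, a difference of -0.20. The last of the fluoxetine ratios was near the control values. RPL39L, which is not a member, is a copy of the exit tunnel protein RPL39 best known from the testis. It had ratios of -0.33, -0.03 and -0.60 against -0.60, -0.68 and -0.85, a difference of -0.39. For these 2 pairs all fluoxetine ratios were below all control ratios, and the exact two-sided permutation test gave p = 0.1, the smallest that 3 against 3 libraries allow (adjusted over the 5 pairs 0.25). The difference for RPL39L was -0.25 without control library 2 and -0.46 with pseudogene counts added to RPL39. RPL39 had 263 to 547 counts per library and shares all its stretches with other genes, so this ratio is uncertain. RPL36AL to RPL36A differed by -0.22 with overlapping groups (exact permutation p = 0.3), by -0.09 without control library 1 and by -0.40 without control library 3. The remaining pairs, RPS27L to RPS27 and RPL26L1 to RPL26, differed by 0.04 and 0.07 (exact permutation p = 0.7 for both), values that turned negative when fluoxetine library 3 or control library 1 was left out, respectively. RPS27L is a p53 target gene, and neither it (-0.24) nor RPS27 (-0.28) passed the threshold in edgeR.

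Pseudogenes named after the members are close to the parent mRNA in sequence. The table holds 418 of them for 67 members. Their summed share of counts was 0.186% ± 0.0186 in control and 0.160% ± 0.0101 under fluoxetine (SD, n = 3), a log2 difference of -0.22 beside -0.23 for the members. Of 68 pseudogenes that passed the filter, 5 were called lower (7.35%, near the 5.32% of all tested genes) and 0 higher, with a median of -0.20. The pseudogenes of RPL39 had 429% of the CPM of RPL39 itself in control, those of RPL21 162%, those of RPS10 157% and those of RPL41 110%. With pseudogene counts added to the parent gene, 20 members were again called lower, and the log2 fold change of RPS10 was -0.11 in place of -0.81.

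Of 19 listed translation genes known for TOP mRNAs outside the ribosome, 4 were called lower and 0 higher, with a median of -0.20. The share called lower was 21.05%, against 5.32% of all tested genes, and 7.76% of all tested genes were called higher. The 4 were NPM1, a nucleolar chaperone of ribosome assembly (3245, 2899 and 2948 CPM against 2169, 2453 and 2309 CPM, log2 fold change -0.39, edgeR adjusted p = 0.00997), HNRNPA1 (-0.39), EEF1D (-0.50) and EEF1B2 (-0.34). The last 2 encode subunits of the exchange factor of EEF1A. The elongation factors themselves did not pass the threshold, with -0.08 for EEF1A1 (edgeR adjusted p = 0.482) and -0.08 for EEF2 (0.690). The count of 4 was 0 without fluoxetine library 1, 2 without control library 2, 8 without fluoxetine library 2 and 10 without control library 3. FAU, which encodes a small subunit protein fused to a ubiquitin-like part and is left out of the members by its symbol, had -0.35 (0.0718).

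Of 17 regulators of ribosomal protein synthesis that passed the filter, 1 was called higher and 1 lower (5.88% each, near the shares of all tested genes), with a median of 0.10. TSC1, the inhibitor of mTOR complex 1, rose from 32.5, 36.4 and 35.3 CPM to 60.0, 49.8 and 67.5 CPM (log2 fold change 0.77, edgeR adjusted p = 0.00232). EIF4E, the cap-binding protein, fell from 74.8, 79.4 and 78.5 CPM to 64.7, 65.4 and 64.0 CPM (-0.26, edgeR adjusted p = 0.0401). MYC (0.08), LARP1 (0.10) and MTOR (0.08) did not pass the threshold (edgeR adjusted p of 0.709, 0.601 and 0.668). Of 10 chaperones and importers of ribosomal proteins, 3 were called lower (30%, against 5.32% of all tested genes) and 0 higher (against 7.76%). Their median was -0.29. The 3 were BCCIP, which escorts RPL23 (-0.48), AAMP, the relative of the yeast chaperone of RPL10 (-0.33), and IPO5, an importin (-0.31). The count of 3 was 7 without control library 3, 2 without control library 1 or 2, and 1 without fluoxetine library 1 or 3, and no regulator was called lower without control library 2, fluoxetine library 1 or fluoxetine library 3.

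Genes of the mitochondrial ribosome, which translates the mRNAs of the mitochondrial genome, were set beside the members. Of 42 that passed the filter, 9 were called lower (21.4%, against 5.32% of all tested genes) and 0 higher (against 7.76%). Their median was -0.32. MRPL16 had the smallest p (59.9, 53.0 and 42.9 CPM against 34.5, 38.3 and 30.8 CPM, log2 fold change -0.59, edgeR adjusted p = 0.0163), followed by MRPL14 (-0.44), MRPL27 (-0.39), MRPL33 (-0.51) and MRPL22 (-0.38). The groups of these 5 genes, named for their small p from the same libraries, did not overlap. The count of 9 was 30 without control library 3, 17 without fluoxetine library 2 and 0 or 1 without any other library. The median of the cytosolic members (-0.29) and that of the mitochondrial genes (-0.32) thus lay close together, and the difference between the 2 sets was not tested.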

How the data were processed

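Total RNA of H460 cells was sequenced in 3 control and 3 fluoxetine libraries. The authors deposited raw counts of reads per gene for 31762 genes, without normalization or pooling. The submitters' processing notes name fastp 0.20.0, HISAT2 2.1.0, HTSeq 0.10.0 and DESeq2 1.18.1. The library kit, the strand setting and the gene annotation are not given in the sources used here, but 96.8% of the genes shared with GENCODE release 29 (GRCh38) had the same start and end there. Columns with the authors' own fold changes and p-values were not used.

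Counts were tested as deposited with edgeR 4.0.16 in R 4.3.3 (TMM, filterByExpr, glmQLFit and glmQLFTest, no covariate, Benjamini-Hochberg adjustment over 15646 genes). A gene was called at an adjusted p under 0.05 with any fold change. CPM carry the SD over 3 libraries, and fold changes are log2, fluoxetine minus control. The square root of the common dispersion was 0.107. Depth lay between 16157507 and 27823667 counts, and intervals or floors of 3 counts cover counting error only. Replicates differed by more than sampling noise (chi-square per degree of freedom 3.69 to 25.2 within groups, and 7.41 to 126 over the members alone). Between groups the value over the members was 13.7 to 88.6, inside the range within groups. All 6 libraries were kept.

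Coding lengths and stretches of 75 bases shared with other genes' transcripts came from GENCODE 29, and start sites from RefSeq. The paralogue ratios were compared by an exact two-sided permutation test in scipy 1.17.1. The fits were also run on simulated counts. These had a smaller spread between libraries than the data, so they give no assurance for the calls made here.

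The members and gene lists were chosen with earlier results of these data known. Named were the called members, the 5 largest rises and falls and the 3 highest and lowest levels per length in each subunit, members of a special role, the paralogue pairs, and up to 5 called genes of each other list. EEF1G had no matching row and MYCN did not pass the filter. Alternatives were DESeq2 1.42.0, limma-voom (limma 3.58.1), RLE, library size only, TMM without the members, other filters, a replicate block, trends of transcript length and GC removed, merged pseudogenes, and leaving out libraries. The results of 2 genes covered by these rules are not reported here.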

Additional observations from a re-analysis of the deposited data

How the results depend on the processing

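The median log2 fold change lay between -0.42 and -0.24 for the large and between -0.38 and -0.23 for the small subunit under the alternatives. These medians, and the shares of counts without 1 library, over tested genes alone or with merged pseudogenes, moved by less than the spread between libraries, and 0 members were called higher under any alternative. The number of members called lower (20, with 15 of the large and 5 of the small subunit) moved. With DESeq2 it was 41 (27 and 14), with TMM factors computed without the members 38 (25 and 13), and without a filter on low counts 65 (39 and 26). With the trends of length and GC content removed it was 50 (33 and 17). Leaving out 1 library gave 1 to 71 (1 to 42 of the large and 0 to 29 of the small subunit). RLE, library size only, limma-voom, a minimum of 10 counts and merged pseudogenes gave 17 to 26. At an unadjusted p under 0.05 it was 64 (37 and 27), and with a fold change of at least 2 it was 0 in both subunits. Chosen after seeing the data, leaving out library 3 of both groups gave 43 (28 and 15). With all 6 libraries, the number called lower ranged from 7 to 27 for the mitochondrial ribosomal genes (9 as reported), from 4 to 10 for the other TOP genes (4) and from 3 to 8 for the chaperones (3). Calls over all tested genes are not given beside these ranges or beside the counts with 1 library left out. The causes were not tested. Among the paralogue ratios, RPS27L to RPS27 ranged from -0.0087 (without fluoxetine library 3) to 0.0829, and RPL26L1 to RPL26 from -0.0023 (without control library 1) to 0.183, when 1 library was left out, and the latter was -0.0316 with pseudogene counts merged.

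The replicate block, with the replicate number as a term, gave 63 members called lower (38 and 25), and together with removal of the length and GC trends (added after seeing the data) 40 (27 and 13). The same-numbered deviations from the group means had correlations of 0.03, 0.12 and 0.39 over all tested genes, control library 1 followed fluoxetine library 2 more closely (0.32), and the labels name nothing that the numbers share, so the numbers were not taken as pairs. Over the members alone the same-numbered correlations were 0.27, 0.37 and 0.80, but control library 1 again followed fluoxetine library 2 more closely (0.56), a hint from the data and not from the design. Of the 80 members with at least 100 counts, 80, 72 and 77 were lower under fluoxetine within numbers 1, 2 and 3. The replicate block also called RPS15. The floor of 3 counts was worth at most 0.186 CPM and RPL3L, RPS10 and RPL17 had fewer than 100 counts in some library. With 3 libraries per group, the paralogue ratios could not reach an exact permutation p below 0.1.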
